A study of Homo sapiens with 18 samples.

Results

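The integrated stress response is a shared program by which cells answer amino acid shortage, unfolded proteins, heme shortage, and double-stranded RNA. Each of these activates a kinase that phosphorylates the translation factor eIF2alpha, which slows protein synthesis while translation of ATF4 mRNA increases. ATF4, a basic leucine zipper (bZIP) transcription factor, then induces genes for amino acid supply, redox balance, and feedback on the pathway, and in prolonged stress genes linked to cell death. RNA-seq measures mRNA and not translation, so the control of ATF4 at the ribosome is outside these data.

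The core genes of this program were followed by their symbols in the count table: the transcription factors ATF4, ATF5, CEBPB, and DDIT3, the feedback genes PPP1R15A and TRIB3, and the effectors CHAC1, ASNS, SESN2, and DDIT4. They are 10 of the 22034 genes in the table, and all 10 passed the filter on low counts, as did 14164 genes in all. The 18 samples came from VCaP, a prostate cancer cell line with the TMPRSS2:ERG fusion, in 6 groups of 3. In VCaP-shERG cells a hairpin RNA against ERG is induced by doxycycline (Dox), and these cells received either vehicle or Dox at 1 µg/mL. Their vehicle samples are labeled DMSO as well. Below, vehicle names this shERG group and DMSO names the parental group. Parental cells received either DMSO or PBITE-1, described in the study as an ERG inhibitor, at 50 µM for 4, 8, or 12 h. The labels give no duration of Dox and no collection time of the DMSO samples, and no sample with Dox and a control hairpin was analysed here.

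Depth ranged from 11308600 to 17483423 counts per sample. ERG mRNA, the target of the hairpin, was 419 ± 12.2 CPM with vehicle and 154 ± 3.91 CPM with Dox (mean ± SD, n = 3). CPM are counts scaled to library size with TMM factors over the 18 samples. ERG fell by 1.44 on the log2 scale with Dox (SE 0.035, adjusted p = 3.29e-22) and by 1.62 after 8 h of PBITE-1 (SE 0.048, adjusted p = 8.52e-28). Of 9 VCaP identity genes, all had counts in every sample. Their summed level was 9876 to 10126 CPM with vehicle, 5586 to 5798 with Dox, 7986 to 8124 with DMSO, and 3382 to 3931 after 12 h of PBITE-1, and the part of this difference in the results below was not tested. The fibroblast list summed to 0.822 to 1.69 CPM with vehicle, 4.96 to 5.60 with Dox, 1.02 to 1.66 with DMSO, and 4.27 to 7.49 after 12 h. Of its 3 genes COL1A1 had 13 to 110 counts per sample, and COL1A2 and DCN had at most 1 and 2. The endothelial list (PECAM1 up to 26 counts, VWF up to 25, CDH5 up to 1) summed to 0.281 to 0.695 CPM with vehicle, 1.02 to 1.09 with Dox, 0.768 to 1.55 with DMSO, and 1.47 to 2.11 after 12 h. The leukocyte list (CD68 at 7 to 20 counts, PTPRC up to 4, CD3E up to 1) summed to 0.529 to 1.41 CPM over all samples. The basal epithelial genes KRT14 (10 to 96 counts) and TP63 (up to 14) summed to 3.95 to 6.15 CPM with DMSO and 1.17 to 2.04 after 12 h, and to 1.12 to 1.79 with vehicle and 0.801 to 1.02 with Dox. The part of these lists in the results was not tested either.

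The promoters of the 10 genes were read from RefSeq on GRCh38.p14, from 250 bases before to 50 bases after each annotated start, and all 10 genes matched, with 18 promoters. The promoter table holds 35116 promoters of 27305 genes. A gene counts if any of its promoters matches, so the 10 genes had more sequence searched per gene than all genes. The core TGATGNAA, shared by the composite elements to which ATF4 binds with C/EBP partners, was found on either strand in 2 of the 10 genes, ASNS and CHAC1, beside 4.46% of the 27305 genes in the promoter table. These windows are shown because they hold the element of the ATF4 program, with the match in capitals. In ASNS the match begins at position -68 from the start, on the strand of the gene (chr7:97872458-97872487, minus strand). In CHAC1 it begins at -209 and lies on the opposite strand (chr15:40953251-40953280, plus strand).
ASNS: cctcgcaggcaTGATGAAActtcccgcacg
CHAC1: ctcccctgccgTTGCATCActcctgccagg
The ETS core CGGAAG, the letters recognized by the family to which ERG belongs, was found on either strand in 5 of the 10 genes (ASNS, ATF4, ATF5, DDIT3, and TRIB3), beside 22.6% of all genes in the table. The matches of ATF4 (chr22:39520478-39520507, plus strand) and TRIB3 (chr20:381233-381262, plus strand) are shown because ATF4 heads the program and TRIB3 had the lowest fold change of the 10 genes with Dox. They begin at -69 and -50 from the RefSeq start of that promoter. The windows shown lie inside the GENCODE bounds of the genes given below, so the promoter starts differ from those bounds.
ATF4: acgtggtcgcggCGGAAGgatgcgtctgtg
TRIB3: ggaagggggcgcCGGAAGcctctgggcgtc
The endoplasmic reticulum stress element (ERSE), bound by ATF6, was found in 0 of the 10 genes and in 0.0916% of all genes in the table. A match describes these letters only and says nothing of binding.

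With PBITE-1, 8 of the 10 genes rose at 4 h and 9 at 8 and 12 h, while ATF5 fell at 8 and 12 h. Genes were called with limma-voom at a Benjamini-Hochberg adjusted p under 0.05 over the 14164 genes and an absolute log2 fold change above 1. By the same rule, 7.28% of all genes were higher and 2.99% lower at 4 h, 14.9% and 8.86% at 8 h, and 17.1% and 15.4% at 12 h. Over the 10 genes the log2 fold change had a median of 3.45, 3.89, and 3.96 at the 3 times, and over all genes tested the median was between -0.02 and -0.01. The 3 times share the same DMSO samples.

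**Figure D1:**
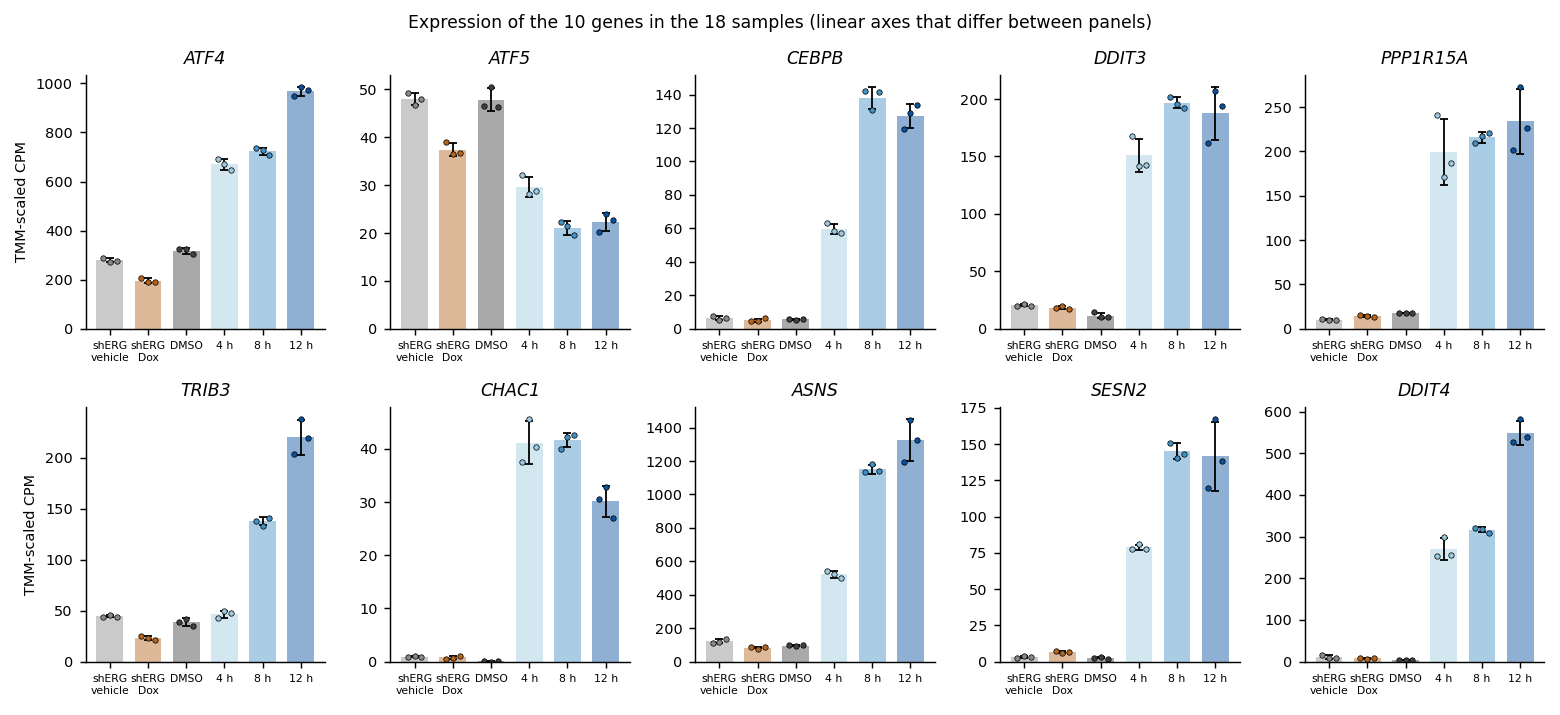
Expression of each gene (TMM-scaled CPM, linear axes that differ between panels) in vehicle-treated and Dox-treated VCaP-shERG cells, and in parental cells with DMSO or 4, 8, and 12 h of PBITE-1. Bars are means of 3 samples, error bars are SD, and points are samples. In 9 panels every PBITE-1 sample lies above every DMSO sample, and in the ATF5 panel every PBITE-1 sample lies below them.

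ATF4 (ENSG00000128272, chr22:39519695-39522685, positions here and below from GENCODE release 29 on GRCh38) was the most abundant of the 10 genes per length in DMSO, at 126 CPM per kb of exon. Its level was 324, 325, and 303 CPM in the 3 DMSO samples, 692, 671, and 647 CPM at 4 h, 736, 729, and 707 CPM at 8 h, and 949, 985, and 972 CPM at 12 h. The 4 groups did not overlap, and each later time lay above the one before. ATF4 mRNA rose by 1.10 on the log2 scale at 4 h (SE 0.036, adjusted p = 1.13e-25) and by 1.65 at 12 h (SE 0.035, adjusted p = 1.02e-32). The 12 h value was the smallest among the 9 genes that rose at that time.

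DDIT3 (ENSG00000175197, chr12:57516588-57521737), which encodes the transcription factor CHOP, was at 14.2, 9.86, and 10.3 CPM with DMSO. It was at 168, 142, and 143 CPM at 4 h, 202, 196, and 192 CPM at 8 h, and 162, 207, and 194 CPM at 12 h. The 12 h samples overlapped those of 4 and 8 h, and all PBITE-1 samples lay above DMSO. The increase was 3.76 on the log2 scale at 4 h (SE 0.125, adjusted p = 1.44e-25) and 4.10 at 12 h (SE 0.123, adjusted p = 9.52e-28). The ends of DDIT3 overlap MARS1 and MBD6 on the other strand, and the use of strand in counting is not stated, so the assignment of reads there is uncertain. On its own strand DDIT3 shares 2769 bases with AC022506.1, which is absent from the count table.

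CEBPB (ENSG00000172216, chr20:50190734-50192689), a bZIP factor of the C/EBP family and a partner of ATF4, was at 5.66, 5.32, and 5.98 CPM with DMSO. It was at 63.0, 58.4, and 57.3 CPM at 4 h, 142, 131, and 142 CPM at 8 h, and 120, 129, and 134 CPM at 12 h. The 8 and 12 h samples overlapped and lay above those of 4 h. CEBPB rose by 3.41 on the log2 scale at 4 h (SE 0.128, adjusted p = 9.34e-24) and by 4.63 at 8 h (SE 0.125, adjusted p = 4.4e-29).

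ATF5 (ENSG00000169136, chr19:49928702-49933935), a bZIP factor related to ATF4 whose translation is also controlled through eIF2alpha, was lower with PBITE-1. It was at 46.5, 50.6, and 46.3 CPM with DMSO, 32.1, 28.2, and 28.8 CPM at 4 h, 22.3, 21.5, and 19.5 CPM at 8 h, and 20.3, 24.0, and 22.7 CPM at 12 h. All 9 PBITE-1 samples lay below the 3 DMSO samples, and the 8 and 12 h samples overlapped. The log2 fold change was -0.67 at 4 h (SE 0.074, adjusted p = 7.12e-10), short of the minimum size, -1.14 at 8 h (SE 0.080, adjusted p = 8.64e-16), and -1.05 at 12 h (SE 0.078, adjusted p = 2.43e-15). Without replicate 1 of the 12 h group the 12 h value was -0.995 and was no longer called. ATF5 overlaps NUP62 and IL4I1 on the other strand, where reads may be shared if strand was not used.

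PPP1R15A (ENSG00000087074, chr19:48872392-48876057), also known as GADD34, brings a phosphatase to eIF2alpha and so ends the response. It was at 17.3, 18.3, and 17.5 CPM with DMSO, 241, 171, and 187 CPM at 4 h, 209, 218, and 221 CPM at 8 h, and 202, 273, and 227 CPM at 12 h. The samples of the 3 times overlapped, far above DMSO. PPP1R15A rose by 3.49 on the log2 scale at 4 h (SE 0.129, adjusted p = 5.58e-24) and by 3.75 at 12 h (SE 0.128, adjusted p = 5.12e-26).

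TRIB3 (ENSG00000101255, chr20:362835-397559), a pseudokinase that restrains ATF4 and AKT signaling, responded later. It was at 39.2, 42.1, and 34.9 CPM with DMSO and at 42.5, 49.3, and 47.6 CPM at 4 h, where the lowest sample stood just above the highest DMSO sample. It reached 138, 133, and 141 CPM at 8 h and 204, 238, and 219 CPM at 12 h, and these groups did not overlap. The log2 fold change against DMSO was 0.29 at 4 h (SE 0.079, adjusted p = 0.002), below the minimum size. It was 1.86 at 8 h (SE 0.067, adjusted p = 7.29e-25) and 2.55 at 12 h (SE 0.065, adjusted p = 4.21e-30).

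CHAC1 (ENSG00000128965, chr15:40952962-40956519) encodes an enzyme that degrades glutathione. It had 1, 0, and 2 counts in the DMSO samples, and the sample at 0 allows a level of up to 0.192 CPM, the level of 3 counts. With PBITE-1 it was at 37.5, 45.6, and 40.4 CPM at 4 h, 40.1, 42.3, and 42.5 CPM at 8 h, and 30.6, 32.9, and 27.1 CPM at 12 h. The 4 and 8 h samples overlapped, and those of 12 h lay below both. The ratio of summed counts to DMSO was 644 after 4 h (95% interval 220 to 3128), 647 after 8 h (221 to 3143), and 471 after 12 h (161 to 2288), and the intervals cover counting error only. The fitted log2 fold changes of 9.04, 9.06, and 8.61 (SE 0.716 at each time, adjusted p = 1.11e-13, 2.79e-14, and 8e-14) rest on these 3 DMSO counts.

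ASNS (ENSG00000070669, chr7:97852118-97872542), asparagine synthetase, was at 96.2, 92.7, and 97.0 CPM with DMSO. It was at 541, 522, and 502 CPM at 4 h, 1132, 1181, and 1140.1 CPM at 8 h, and 1196, 1446, and 1328 CPM at 12 h. The 4 groups did not overlap and followed the order of time. ASNS rose by 2.47 on the log2 scale at 4 h (SE 0.056, adjusted p = 7.81e-31) and by 3.83 at 12 h (SE 0.053, adjusted p = 7.84e-39). At 12 h it stood at 297 CPM per kb, second to ATF4 at 385. On its own strand ASNS shares 20425 bases with AC079781.5, which is absent from the count table.

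SESN2 (ENSG00000130766, chr1:28259527-28282491), a leucine-binding inhibitor of mTORC1, was at 2.76, 3.27, and 2.09 CPM with DMSO. It was at 77.6, 81.0, and 77.9 CPM at 4 h, 151, 140, and 143 CPM at 8 h, and 119, 167, and 138 CPM at 12 h. The 12 h samples spread across those of 8 h, and both lay above 4 h. SESN2 rose by 4.90 on the log2 scale at 4 h (SE 0.241, adjusted p = 5.33e-20) and by 5.79 at 8 h (SE 0.238, adjusted p = 5.09e-23).

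DDIT4 (ENSG00000168209, chr10:72273920-72276036), also known as REDD1, inhibits mTORC1 through the TSC complex. It was at 3.66, 4.42, and 4.24 CPM with DMSO, 254, 300, and 256 CPM at 4 h, 321, 317, and 310 CPM at 8 h, and 527, 581, and 540 CPM at 12 h. The 4 groups did not overlap and followed the order of time. DDIT4 rose by 6.05 on the log2 scale at 4 h (SE 0.167, adjusted p = 3.59e-28) and by 7.09 at 12 h (SE 0.166, adjusted p = 3.1e-31), the highest value of the 10 genes after CHAC1.

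The order of onset was examined next. Onset, the first time at which a gene was called against DMSO, was 4 h for ATF4, DDIT3, CEBPB, PPP1R15A, CHAC1, ASNS, SESN2, and DDIT4, and 8 h for TRIB3 and ATF5. With the adjusted p alone, onset was 4 h for all 10, and these times then do not order the genes. The share of the 12 h log2 fold change present at 4 h was also computed. It was 11.5% for TRIB3, 63.7% for ATF5, 64.5% for ASNS, 66.5% for ATF4, and 75.3% for CEBPB, and from 85.2% to 105% for the other 5 genes. This share depends on the size of the whole change as well as its timing, so it does not order the onsets. From 4 to 12 h, DDIT4 went from 270 to 549 CPM with a high share, and ATF4 from 670 to 969 CPM with a lower one.

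Direct tests between times gave 3 calls from 4 to 8 h: TRIB3, with a log2 difference of 1.57 (SE 0.068, adjusted p = 3.96e-21), CEBPB, with 1.22 (SE 0.057, adjusted p = 3.09e-20), and ASNS, with 1.15 (SE 0.043, adjusted p = 4.79e-23). By this rule 4.43% of all genes were higher and 2.22% lower at 8 h than at 4 h. SESN2 fell short of the minimum size at 0.89 (SE 0.071, adjusted p = 2.12e-13). CHAC1 and PPP1R15A had log2 differences of 0.02 (SE 0.077, adjusted p = 0.857) and 0.14 (SE 0.075, adjusted p = 0.112). For PPP1R15A the difference was 0.28 without replicate 1 of the 4 h group (adjusted p = 0.000744), and it passed the adjusted p under 3 other alternatives at 0.14 to 0.18.

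From 8 to 12 h, none of the 10 genes was called by limma-voom, while 3.48% of all genes were higher and 6.59% lower. Of the 10 genes, 6 had an unadjusted p under 0.05. The log2 difference was 0.81 for DDIT4 (SE 0.044, adjusted p = 9.4e-19), 0.69 for TRIB3 (SE 0.051, adjusted p = 9.9e-15), 0.43 for ATF4 (SE 0.032, adjusted p = 1.51e-14), and 0.21 for ASNS (SE 0.039, adjusted p = 1.06e-05). CHAC1 was lower at 12 h than at 8 h by the adjusted p, at -0.45 (SE 0.080, adjusted p = 7.27e-06). The difference for DDIT3, CEBPB, SESN2, PPP1R15A, and ATF5 did not pass the adjusted p, with values from -0.10 to 0.12. CEBPB, at -0.10 (adjusted p = 0.0625), passed it under 5 alternatives, with values from -0.11 to -0.14, among them a fit of all 18 samples (adjusted p = 0.0352). Without replicate 2 of the 12 h group, SESN2 (-0.16, adjusted p = 0.0118) and DDIT3 (-0.14, adjusted p = 0.0485) passed it as well. PPP1R15A passed it in the other direction without replicate 1 of the 12 h group (0.22, adjusted p = 0.00572) and in a fit of only the 8 and 12 h groups (0.15, adjusted p = 0.0342).

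**Figure D2:**
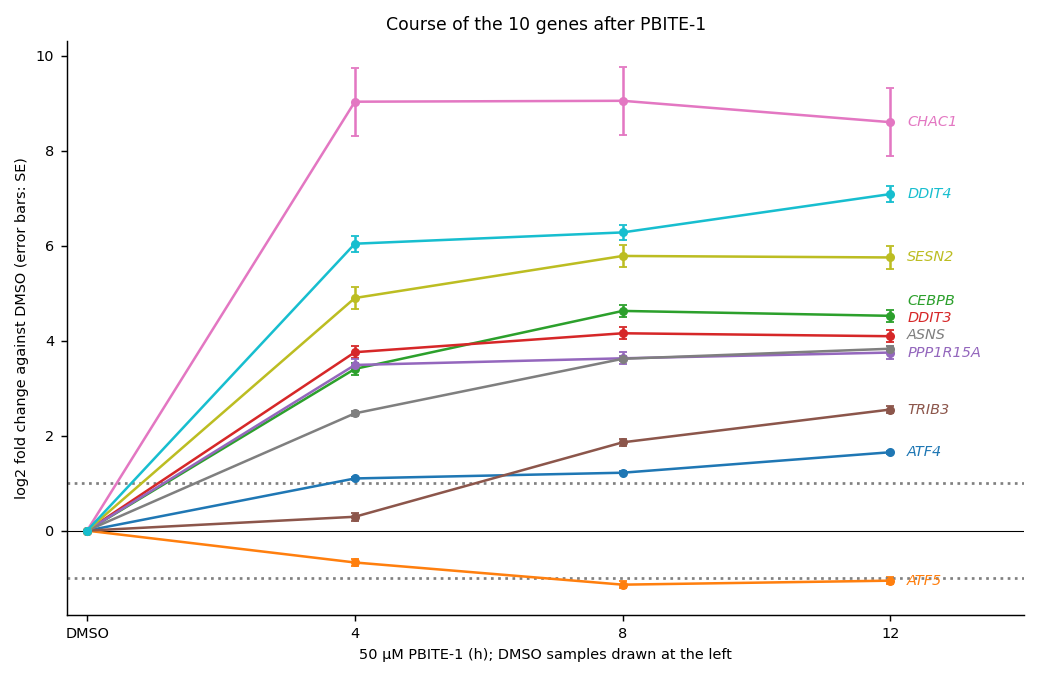
Log2 fold change against DMSO (vertical axis) at 4, 8, and 12 h of PBITE-1, with the DMSO samples drawn at the left and error bars for SE. Dotted lines mark the minimum size of a call. TRIB3 starts at 0.29 and reaches 2.55, ATF5 crosses the lower line at 8 h, and CHAC1 is highest at each time with the widest error.

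None of the 10 genes was called with Dox by limma-voom, where 12% of all genes were higher and 7.19% lower. Of the 10, 7 had an unadjusted p under 0.05. With the adjusted p alone, 2 of the 10 were higher and 5 lower, and 35.1% and 35.3% of all genes were. The lower genes were TRIB3, ASNS, DDIT4, ATF4, and ATF5, and the higher genes were SESN2 and PPP1R15A. DDIT3, CEBPB, and CHAC1 passed neither rule, though CEBPB was lower by the adjusted p without vehicle replicate 2, at -0.48 (adjusted p = 0.0295).

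ATF4 was at 287, 272, and 277 CPM with vehicle and at 207, 192, and 190 CPM with Dox. The groups did not overlap, and the log2 fold change was -0.50 (SE 0.037, adjusted p = 3.39e-12). TRIB3, with the lowest fold change of the 10 genes, was at 43.8, 45.5, and 43.9 CPM with vehicle and at 25.1, 23.2, and 21.5 CPM with Dox. Its log2 fold change was -0.94 (SE 0.074, adjusted p = 1.29e-11), just short of the minimum size, and the groups lay far apart. ASNS was at 111, 119, and 137 CPM with vehicle and at 88.7, 77.6, and 85.5 CPM with Dox, without overlap, with a log2 fold change of -0.54 (SE 0.061, adjusted p = 1.2e-08). With library size as the only scaling, the values were smaller, at -0.24 for ATF4, -0.67 for TRIB3, and -0.28 for ASNS. Over all alternative tests and fits, the highest adjusted p was 9.8e-05, 4.63e-05, and 0.00368.

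ATF5 was at 49.2, 46.7, and 47.9 CPM with vehicle and at 38.9, 36.6, and 36.8 CPM with Dox, with a log2 fold change of -0.35 (SE 0.062, adjusted p = 1.42e-05). The groups did not overlap, but with library size as the only scaling its value was -0.09 (adjusted p = 0.173). DDIT4 was at 16.7, 8.91, and 8.57 CPM with vehicle and at 7.88, 6.70, and 7.73 CPM with Dox. Its vehicle replicate 1 stood apart, and the log2 fold change of -0.52 (SE 0.186, adjusted p = 0.0159) was -0.24 without that sample (adjusted p = 0.163). It missed the adjusted p under 5 other alternatives, at -0.44 without Dox replicate 2 (adjusted p = 0.0657), -0.35 with upper-quartile factors (0.0897), -0.26 with library size only (0.214), -0.53 with no filter on low counts (0.199), and -0.61 with DESeq2 (0.0987), where the value was larger than the main one.

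SESN2 was at 2.72, 3.92, and 3.16 CPM with vehicle and at 7.54, 5.60, and 6.63 CPM with Dox, and the groups did not overlap. The log2 fold change of 0.995 (SE 0.197, adjusted p = 7.34e-05) lay at the edge of the minimum size, and SESN2 was called under some alternatives, at 1.01 with DESeq2, 1.15 without vehicle replicate 2, and 1.11 without Dox replicate 2. PPP1R15A was at 10.6, 9.67, and 9.48 CPM with vehicle and at 15.6, 14.8, and 12.7 CPM with Dox, with a log2 fold change of 0.53 (SE 0.117, adjusted p = 0.000236). All 3 Dox samples were above the vehicle samples.

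DDIT3 was at 20.1, 21.6, and 19.9 CPM with vehicle and at 17.8, 19.8, and 17.5 CPM with Dox, and its log2 fold change of -0.17 (SE 0.089, adjusted p = 0.0934) turned to 0.092 with library size as the only scaling. CEBPB was at 7.62, 5.18, and 6.46 CPM with vehicle and at 4.55, 4.51, and 6.20 CPM with Dox, and the groups overlapped (log2 fold change -0.32, SE 0.181, adjusted p = 0.12). CHAC1 had 11, 17, and 13 counts with vehicle and 8, 10, and 14 with Dox (log2 fold change -0.35, SE 0.399, adjusted p = 0.438), a depth at which a difference of this size was not detectable. These vehicle counts were above the 0 to 2 counts of CHAC1 in the parental DMSO samples, and cell line and experiment cannot be told apart there.

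**Figure D3:**
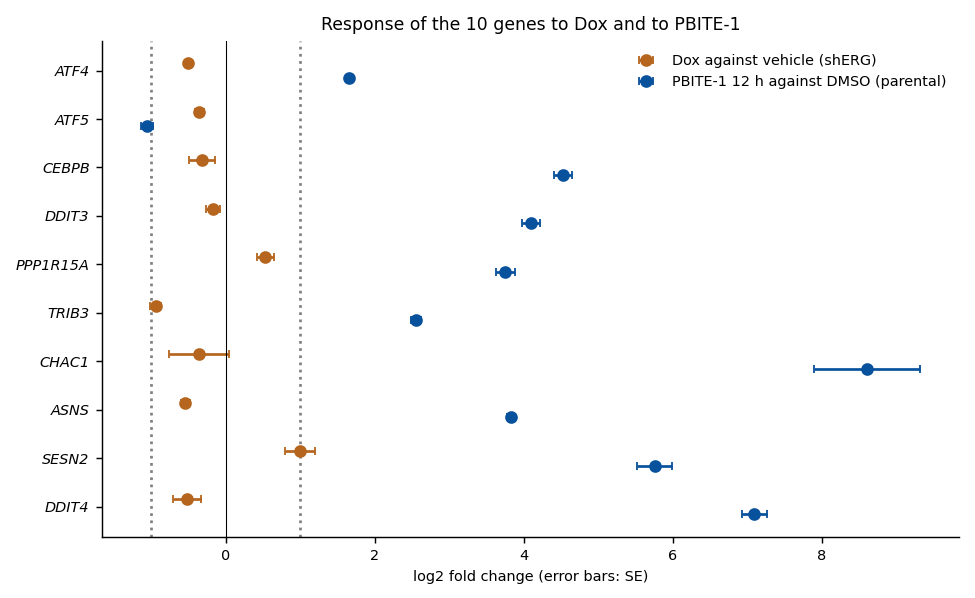
Log2 fold change of each gene (horizontal axis, error bars SE) with Dox in VCaP-shERG cells and with 12 h of PBITE-1 in parental cells. Dotted lines mark the minimum size of a call. The 10 Dox values lie between -0.94 and 0.995, while 9 of the 10 PBITE-1 values lie at 1.65 or above and ATF5 lies at -1.05.

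The response to 12 h of PBITE-1 and the response to Dox were then compared by an interaction term over the 18 samples. The difference was called for 9 of the 10 genes, all toward a higher response to PBITE-1, beside 13% of all genes higher and 15.9% lower. ATF4, TRIB3, ASNS, and DDIT4 were called higher at 12 h of PBITE-1. With Dox none of the 10 genes was called, and these genes were lower by the adjusted p alone, as were 35.3% of all genes. For DDIT4 the Dox result was lost under 6 alternatives (1 test, 2 scalings, 1 filter, and 2 samples left out). The difference of the responses of ATF4, TRIB3, ASNS, and DDIT4 was 2.11 (SE 0.053, adjusted p = 1.95e-33), 3.45 (SE 0.108, adjusted p = 9.29e-30), 4.33 (SE 0.092, adjusted p = 4.73e-36), and 7.57 (SE 0.270, adjusted p = 1.5e-27) on the log2 scale. SESN2 and PPP1R15A were higher with both, with Dox by the adjusted p alone, as were 35.1% of all genes. Their responses were larger with PBITE-1 by 4.72 (SE 0.361, adjusted p = 1.08e-15) and 3.18 (SE 0.241, adjusted p = 7.78e-16). ATF5 was lower with both, with Dox by the adjusted p alone, and its difference of -0.74 (SE 0.0996, adjusted p = 1.11e-08) did not reach the minimum size. Treatment, cell line, experiment, and time of exposure cannot be told apart in this comparison, since the labels give no duration of Dox.

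The levels over the 6 groups fell into a few orders. ATF4 and ASNS were lowest with Dox and then rose through vehicle or DMSO to 4, 8, and 12 h, with no overlap between neighbors. DDIT4 was lowest with DMSO, at 4.11 ± 0.398 CPM (SD, n = 3), followed by Dox, at 7.43 ± 0.645 CPM, and vehicle, at 11.4 ± 4.61 CPM. For SESN2 the lowest neighbors, DMSO at 2.71 ± 0.589 CPM and vehicle at 3.27 ± 0.606 CPM, overlapped. For ATF5 the highest neighbors overlapped, vehicle at 48.0 ± 1.26 CPM and DMSO at 47.8 ± 2.40 CPM. PPP1R15A was lowest with vehicle in shERG cells, at 9.91 ± 0.585 CPM, and stood at 17.7 ± 0.523 CPM with DMSO in parental cells, without overlap.

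For each of the 10 genes, the tested gene with the nearest profile was found by Euclidean distance over the 4 log2 fold changes (Dox and 4, 8, and 12 h) among 11294 genes with a mean count of at least 50. The nearest profiles were those of AKAP8 to ATF5 (distance 0.12), MAFA to SESN2 (0.21), ZNF184 to ATF4 (0.29), ACSS2 to TRIB3 (0.45), NOTCH1 to ASNS (0.52), IER5 to DDIT3 (0.60), and EGR1 to PPP1R15A (0.65). ATF3 was nearest to CHAC1 (0.71). CEBPB (FSCN1, 0.99) and DDIT4 (FOSB, 1.51) had the most distant neighbors.

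The rest of the pathway was read from lists written from general knowledge, but with earlier results of these data known. Their shares are therefore a description and not an independent test. Counts below are of genes called by the same rule. Beside them, 7.28% of all genes tested were higher and 2.99% lower at 4 h, and 14.9% and 8.86% at 8 h. At 12 h the shares of all genes were 17.1% and 15.4%, and with Dox 12% and 7.19%. Among 8 kinases and sensors upstream of eIF2alpha, none was called at 4 or 8 h and 1 at 12 h, where the list's median log2 fold change was -0.22. This was 12.5% of the list, below the 17.1% of all genes that were higher at 12 h. The one called was EIF2AK3, the endoplasmic reticulum kinase PERK, at 39.0 ± 2.56 CPM with DMSO, 57.0 ± 0.807 CPM at 4 h, 65.4 ± 2.93 CPM at 8 h, and 144 ± 14.8 CPM at 12 h (SD, n = 3 each), which rose by 1.93 on the log2 scale at 12 h (SE 0.066, adjusted p = 5.59e-26). At 12 h the log2 fold change was -0.10 (SE 0.038) for the heme-regulated kinase EIF2AK1, -0.93 (SE 0.049) for the kinase of double-stranded RNA EIF2AK2, and -0.28 (SE 0.054) for the amino acid sensor EIF2AK4. Of 14 genes for eIF2, eIF2B, and the eIF2alpha phosphatase, none was called at 4 or 8 h, and EIF2B5, a subunit of the exchange factor, fell by 1.27 at 12 h (SE 0.057, adjusted p = 4.56e-22), beside a list median of -0.18. That gene was 7.14% of the list, below the 15.4% of all genes that were lower at 12 h. With Dox none of these 2 lists was called, and their medians were 0.0079 and -0.41, beside 0.018 for all genes tested. PPP1R15B, the constitutive counterpart of PPP1R15A, was at 0.99 at 12 h (SE 0.042, adjusted p = 6.41e-23), just below the minimum size.

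Of 9 tested bZIP partners, 5, 7, and 9 rose at the 3 times and none fell, and their median at 12 h was 1.84 on the log2 scale. ATF3, a stress-induced bZIP factor, was at 0.663 ± 0.370 CPM with DMSO (7 to 17 counts) and at 288 ± 49.8 CPM at 4 h, 263 ± 6.54 CPM at 8 h, and 365 ± 63.2 CPM at 12 h. It rose by 8.82 on the log2 scale at 4 h (SE 0.631, adjusted p = 5.84e-15), and with Dox its value was -0.35 (SE 0.433, adjusted p = 0.476). At 12 h the smallest increase in this list was that of CEBPD, 1.04 (SE 0.262, adjusted p = 0.00049), which with Dox was the one list member called, lower by a log2 fold change of -1.05 (SE 0.313, adjusted p = 0.00444). CEBPD had only 14 to 19 counts per sample with Dox.

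Of 23 other ATF4 targets in stress and growth control, 9 rose and 3 fell at 4 h, 12 rose and 3 fell at 8 h, and 12 rose and 2 fell at 12 h, and the median log2 fold change was 1.13 after 12 h and -0.34 with Dox. The lower genes were 13%, 13%, and 8.7% of this list, beside 2.99%, 8.86%, and 15.4% of all genes. GDF15, a secreted stress cytokine, had the highest value at 12 h, with a mean of 3.32 ± 0.538 CPM with DMSO and 142 ± 18.6 CPM at 12 h and a log2 fold change of 5.44 (SE 0.195, adjusted p = 2.54e-25). BBC3, the proapoptotic BH3 protein PUMA, had the highest at 8 h, 5.35 (SE 0.345, adjusted p = 6.5e-17), and GADD45B at 4 h, 4.14 (SE 0.225, adjusted p = 1.37e-18). BBC3 had only 9 to 16 counts per sample with DMSO. VLDLR, a lipoprotein receptor, was lowest at 4 and 8 h, with -1.72 (SE 0.060) and -1.91 (SE 0.061). With Dox, 1 rose and 6 fell, from KLHL24 at 1.46 (SE 0.081, adjusted p = 7.65e-15) to STC2 at -1.78 (SE 0.076, adjusted p = 3.31e-17).

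Of 8 amino acid transporters, 3 rose at 4 h and 6 at 8 and 12 h, with none lower and medians of 2.54 after 12 h and -0.97 with Dox on the log2 scale. SLC7A11, the cystine/glutamate exchanger, was at 34.6 ± 4.67 CPM with DMSO, 157 ± 8.28 CPM at 4 h, 561 ± 16.6 CPM at 8 h, and 1078 ± 156 CPM at 12 h, a log2 fold change of 4.99 at 12 h (SE 0.092, adjusted p = 1.28e-34). With Dox, 3 of the 8 fell, from SLC1A5 at -1.03 (SE 0.053) to SLC6A9 at -1.96 (SE 0.343, adjusted p = 1.52e-05), which had only 7 to 18 counts per sample with Dox. Of 12 genes of amino acid and one-carbon synthesis, 4, 5, and 8 rose at 4, 8, and 12 h, led by ALDH1L2 with 4.28 at 12 h (SE 0.316, adjusted p = 2.34e-15, only 7 to 18 counts per sample with DMSO), and 2 fell at 12 h, with PYCR1 lowest at -1.24 (SE 0.063, adjusted p = 2.84e-20). The share lower at 12 h, 16.7%, was near the 15.4% of all genes. With Dox, 3 of the 12 fell and none rose (median -0.74, against 1.36 at 12 h), the lowest being MTHFD2, a mitochondrial folate enzyme, at -1.51 (SE 0.056, adjusted p = 1.74e-18).

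Of 12 cytosolic tRNA synthetases, 1, 4, and 5 rose at 4, 8, and 12 h, with CARS1 highest each time and at 2.59 at 12 h (SE 0.068, adjusted p = 1.08e-29), and with Dox only YARS1 was called in this list, at -1.15 (SE 0.057). Their median log2 fold change was 0.88 at 12 h and -0.51 with Dox. The share higher was 8.33% at 4 h, near the 7.28% of all genes, and 33.3% and 41.7% at 8 and 12 h, beside 14.9% and 17.1%. The share lower with Dox, 8.33%, was near the 7.19% of all genes. Of 16 genes of the other branches of the unfolded protein response, 3, 3, and 5 rose at the 3 times and none fell, with a median of 0.37 at 12 h and -0.30 with Dox. The shares higher were 18.8%, 18.8%, and 31.2%, beside 7.28%, 14.9%, and 17.1% of all genes, so that at 8 h was near the background. Here DNAJB9, a chaperone induced through IRE1 and XBP1, was at 10.3 ± 1.59 CPM with DMSO, 31.1 ± 1.60 CPM at 4 h, 25.9 ± 0.373 CPM at 8 h, and 168 ± 20.1 CPM at 12 h. It rose by 4.08 on the log2 scale at 12 h (SE 0.113, adjusted p = 6.07e-29). ERN1, which encodes IRE1, was highest in this list at 8 h, at 3.09 (SE 0.096, adjusted p = 5.11e-27). With Dox, HSPA5 (the chaperone BiP) and PDIA4 were called lower, at -1.01 (SE 0.021) and -1.03 (SE 0.032). Neither was called with PBITE-1. HSPA5 was at 1951 ± 80.6 CPM with DMSO and at 2400 ± 42.0, 1490 ± 35.0, and 2071 ± 58.6 CPM at 4, 8, and 12 h. PDIA4 was at 556 ± 18.3 CPM with DMSO and at 600 ± 9.17, 470 ± 10.7, and 418 ± 17.4 CPM.

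**Figure D4:**
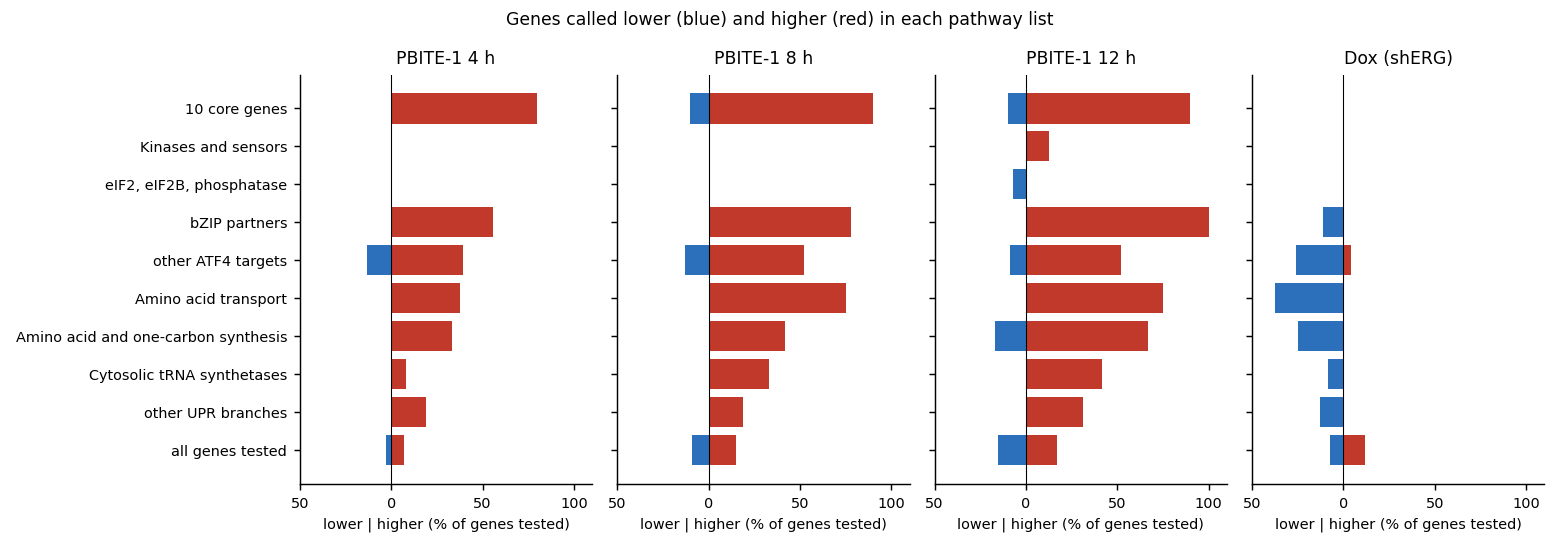
Percent of tested genes called higher (red, to the right) and lower (blue, to the left) in the 10 core genes, in 8 pathway lists, and in all genes tested, for PBITE-1 at 4, 8, and 12 h and for Dox. The bZIP partners reach 100% higher at 12 h, the kinases reach at most 12.5% higher and the eIF2 group at most 7.14% lower, and with Dox the bars of the lists lie mainly to the left.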

How the data were processed

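Total RNA, depleted of ribosomal RNA, was sequenced in the 18 samples. The authors deposited raw counts per gene as whole numbers. The submitters' processing notes name STAR, featureCounts, and hg38, while the paper's methods name Kallisto, and which tool made the table is not known here. Annotation release and use of strand are not given in the sources used here. Of 22034 genes, 22011 matched a symbol. Each sample had its own column, and 0 columns lacked a sample.

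Genes were kept by filterByExpr over the 6 groups (14164 genes, 64.3%). Counts were TMM-scaled with edgeR 4.0.16 and tested, two-sided, by limma-voom (limma 3.58.1, R 4.3.3) with moderated statistics. The 12 parental and the 6 shERG samples were fitted separately, and the interaction in all 18. DESeq2 1.42.0 served as an alternative. The procedure was tested on simulated data. The methods state biological replicates for PBITE-1, and for the shERG samples p-values may measure technical spread only. No replicate pair agreed within sampling noise (chi-square per degree of freedom 1.69 to 4.94). Processed pseudogenes of ATF4 and ASNS had at most 8 counts. CEBPB and DDIT4 overlap CEBPB-AS1 and DDIT4-AS1 on the other strand, and neither of these is in the count table.

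The 10 genes and the lists were chosen with earlier results of these data known. Further genes named are ERG, ATF3, the 4 eIF2alpha kinases, PPP1R15B, the called genes with the highest and lowest fold change per list and comparison, and the nearest profile of each of the 10. Exon lengths are the union of a gene's exons.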

Additional observations from a re-analysis of the deposited data

Results flagged for a closer look

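In a direct test of 8 h against 4 h of PBITE-1, 3 of the 10 genes were called, beside 4.43% of all genes higher and 2.22% lower. The log2 difference was 1.57 for TRIB3, 1.15 for ASNS, and 1.22 for CEBPB, and in each the 3 samples at 8 h lay above the 3 samples at 4 h. With no minimum fold change, 7 of the 10 were higher and 1 lower, beside 3783 and 3732 of the 14164 genes tested.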

How the results depend on the processing

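The 50 fold changes of the 10 genes against controls and between the responses were recomputed with other tests, scalings, filters, sample sets, a block, and weights, and with each sample left out. Direction and side of the threshold held in 1116 of 1125 such values. One reversed, DDIT3 with Dox, at 0.092 with library size as the only scaling, where the median of all genes was 0.28. With upper-quartile factors that median was 0.18. TMM factors were 1.17 with Dox and 0.973 to 0.978 with vehicle. In 7 cases SESN2 with Dox was called, so the number of genes higher was 1 with DESeq2, RLE factors, upper-quartile factors, library size, at least 10 counts in every sample (where CHAC1 was not tested), or without vehicle replicate 2 or Dox replicate 2. Over samples left out this number ranged from 0 to 1. The number lower at 12 h ranged from 0 to 1, with 0 (ATF5 lost, at -0.995) without replicate 1 of the 12 h group. The cause was not tested. With no minimum fold change, 1 gene was lower at 4 h, 7 were higher and 1 lower from 4 to 8 h, 4 higher and 1 lower from 8 to 12 h, 2 higher and 5 lower with Dox, and 1 lower in the difference of responses, since the size criterion alone had held them back.

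Over all tested genes, same-numbered samples did not deviate together (21 pairs, correlation -0.0232 to 0.0414). A batch that touched few genes would not show in this correlation. With the replicate number as a block, 8, 9, and 9 genes were higher at 4, 8, and 12 h, and no call of the 10 genes changed. A single fit of all 18 samples is the main one for the difference of responses, and a fit of only the groups compared is the main one for Dox. Depth limits CHAC1 in both control groups.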
